A study of Mus musculus with 96 samples.

Results

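Distal intergenic H3K27me3 peaks in hippocampal neurons were the 1778 consensus peaks of the NeuN+ H3K27me3 table whose annotation by the submitters was Distal Intergenic. They made up 43.0% of the 4132 peaks of that table and belong to a series of 22815 peaks in 6 tables. The other peaks of the table were 1095 promoter peaks and 1259 gene-body peaks. Chromatin immunoprecipitation followed by sequencing (ChIP-seq) had been done for H3K27me3, H3K4me3 and Suz12 in nuclei sorted into NeuN+ (neuronal) and NeuN- (non-neuronal) fractions, NeuN being a protein of neuronal nuclei. Mice were wild type (WT), Mutyh-/-, Ogg1-/- or deficient in both genes (DKO), with 3 replicates each, so that 12 libraries carry the values below. All mice were 6-month-old males on a C57BL/6N background without further treatment, and each replicate pooled hippocampi of several animals of 1 genotype. Mutyh and Ogg1 encode DNA glycosylases that start base excision repair of oxidised guanine lesions, and both losses are described only as knockouts, without a Cre driver or an induction step. A pool of nuclei gives 1 value per peak, so fewer nuclei with the mark and less mark per nucleus cannot be told apart.

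H3K27me3 is trimethylation of lysine 27 of histone H3 and is written by Polycomb repressive complex 2 (PRC2), of which Suz12 is a core subunit. It is a mark of repressed chromatin. In differentiated cells it typically lies over CpG-rich promoters and over broad stretches around developmental transcription factor genes that the cell does not use, and H3K4me3 marks promoters that are active or poised. Repeated sequence, such as the satellite arrays at mouse centromeres, is a different kind of intergenic chromatin in which short reads are hard to place.

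The central 200 bases of 7 distal peaks are shown because they span the sequence types behind the results below. They are RefSeq plus-strand sequence of GRCm38.p6 (mm10). In the first 5 the capitals mark each CG dinucleotide. Ly6c2, Axin2, Pak3 and Pex2 name the genes annotated to the non-repeat distal peaks with the highest values, and 4921513I03Rik names a peak without a read in any Ogg1-/- library.
Ly6c2 peak, chr15:75086688-75086887: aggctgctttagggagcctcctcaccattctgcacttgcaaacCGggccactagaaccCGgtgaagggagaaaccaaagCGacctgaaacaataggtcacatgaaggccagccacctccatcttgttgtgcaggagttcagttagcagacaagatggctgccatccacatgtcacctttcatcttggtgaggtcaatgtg
Axin2 peak, chr11:109011866-109012065: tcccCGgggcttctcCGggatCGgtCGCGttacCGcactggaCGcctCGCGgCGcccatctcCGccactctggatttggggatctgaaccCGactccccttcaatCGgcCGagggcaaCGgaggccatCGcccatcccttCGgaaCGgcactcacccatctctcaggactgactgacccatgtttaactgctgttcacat
Pak3 peak, chrX:143482957-143483156: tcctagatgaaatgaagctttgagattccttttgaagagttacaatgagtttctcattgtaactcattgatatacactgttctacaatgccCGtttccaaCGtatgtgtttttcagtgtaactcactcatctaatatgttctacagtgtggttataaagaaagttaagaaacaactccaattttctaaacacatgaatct
Pex2 peak, chr3:5860592-5860791: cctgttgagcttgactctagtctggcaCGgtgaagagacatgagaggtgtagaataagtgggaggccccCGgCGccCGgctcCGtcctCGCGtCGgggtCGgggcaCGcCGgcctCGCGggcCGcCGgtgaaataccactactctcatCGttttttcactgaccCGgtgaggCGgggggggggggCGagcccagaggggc
4921513I03Rik peak, chr10:120726982-120727181: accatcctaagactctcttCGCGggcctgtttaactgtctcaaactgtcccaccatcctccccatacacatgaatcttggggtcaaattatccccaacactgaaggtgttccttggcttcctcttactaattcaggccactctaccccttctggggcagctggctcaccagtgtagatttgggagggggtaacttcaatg
In the sequences of the P4ha2 and Rab10os peaks the capitals mark runs of at least 8 bases that equal the base 1 lag earlier. The lag is the shift at which the window best matched itself. It was 4 bp for P4ha2 (47.6% of bases equal) and 58 bp for Rab10os (43.1%), and it need not be a repeat unit.
P4ha2 peak, chr11:54140516-54140715: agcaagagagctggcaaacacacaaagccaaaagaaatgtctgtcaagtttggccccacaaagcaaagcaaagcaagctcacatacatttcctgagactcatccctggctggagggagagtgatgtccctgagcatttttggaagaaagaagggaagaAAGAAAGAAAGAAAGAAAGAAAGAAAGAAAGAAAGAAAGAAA
Rab10os peak, chr12:3109871-3110070: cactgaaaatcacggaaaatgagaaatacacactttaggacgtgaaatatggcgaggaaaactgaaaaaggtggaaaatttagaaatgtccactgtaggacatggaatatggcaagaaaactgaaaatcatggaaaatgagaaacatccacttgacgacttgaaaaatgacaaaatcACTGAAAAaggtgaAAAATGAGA
The Axin2 and Pex2 stretches held 18 and 19 CG dinucleotides, against 3 in Ly6c2, 2 in Pak3 and 2 in 4921513I03Rik. The P4ha2 stretch held 42 bases in 4-bp tandem runs and the Rab10os stretch 17 bases in runs at 58 bp.

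The distal peaks were checked first for where they lie. Each peak was a counting window of 401 bp, and its value is the number of reads in that window divided by 1 scaling factor per library. Of the 1778 peaks, 1751 (98.5%) overlapped no gene of the GENCODE annotation, 26 overlapped a lincRNA gene and 1 a protein-coding gene. The distance to the closest transcription start site (TSS) had a median of 47.7 kb and ranged from 2.01 kb to 1426 kb, with 75 peaks within 5 kb, 696 between 10 and 50 kb and 25 beyond 500 kb. Nearly 1 in 2 peaks, 863 (48.5%), thus lay more than 50 kb from any TSS. Chromosome 2 carried 215 peaks (12.1% of all distal peaks), and the density was highest on chromosome 13, with 1.25 peaks per Mb. Chromosomes 1 and 15 had 0.266 and 0.260 peaks per Mb, and the X chromosome had 5 peaks in all.

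Most distal peaks lay far from a marked promoter. Their median distance to the nearest H3K27me3 promoter peak was 289 kb, 273 (15.4%) lay within 50 kb of one and 386 (21.7%) lay more than 1 Mb away. For gene-body peaks the median was 150 kb, and 321 (25.5%) lay within 50 kb. Among the 960 genes to which distal peaks were annotated, 209 (21.8%) had an H3K27me3 promoter peak in the same nuclei, 375 (39.1%) had an H3K4me3 promoter peak, 79 had both and 455 (47.4%) had neither.

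In base composition, the medians of distal peaks lay nearer to those of gene-body peaks than to those of promoter peaks. The median GC content was 46.1% for distal, 46.9% for gene-body and 54.6% for promoter peaks, and the median number of CG dinucleotides per window was 4, 5 and 12. CpG-rich windows, defined by a GC content of at least 50% and an observed-over-expected CpG ratio of at least 0.6, were 37 of the distal peaks (2.08%), 30 of the gene-body peaks (2.38%) and 329 of the promoter peaks (30.0%). Repeat peaks, with at least 50% of their bases soft-masked in the reference, were 270 of the distal peaks (15.2%), 116 of the gene-body peaks (9.21%) and 35 of the promoter peaks (3.20%). In 1649 distal peaks (92.7%) every sampled 75-base word was unique in the genome, where words were taken at intervals along the window and not at each base. Most distal windows were therefore CpG-poor sequence without a repeated word among those sampled, with a minority of repeats.

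Several of the genes around which distal peaks gathered encode regulators of development. Of the 960 genes, 632 had 1 distal peak, whereas 75 genes with at least 5 held 505 peaks (28.4%). Sall1, a zinc-finger transcription factor of kidney and limb development, had 18, spread over 615 kb of chromosome 8, with median values of the single peaks between 0.984 and 7.54. Maf, a basic leucine-zipper transcription factor, had 12 over 621 kb of the same chromosome. The Iroquois homeobox genes, which pattern the neural tube and other embryonic fields, were represented by 10 peaks at Irx6, 9 at Irx3 and 7 at Irx1. Tfap2c, the AP-2 gamma factor of neural crest and trophoblast, had 10 peaks, Tshz2, a teashirt zinc-finger gene, had 9, and Nkx6-1, a homeobox gene of the ventral neural tube and the pancreas, had 8. Noncoding or predicted loci were also among the leading annotations, with 13 peaks at A730082K24Rik in the neighbourhood of Sox6. Gm15326, in a stretch with Ankrd55, had 12. A different kind of neighbour was Zfp982, a member of a zinc-finger gene cluster on chromosome 4, where 4 of 10 distal peaks were repeat peaks.

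**Figure D1:**
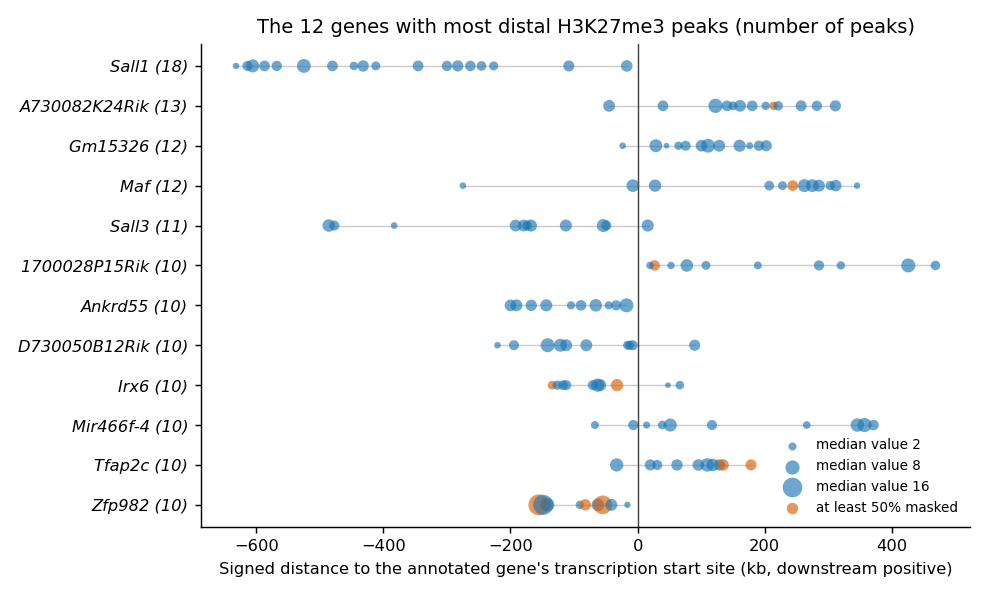
Position of every distal H3K27me3 peak annotated to the 12 genes with most such peaks; the x axis is the signed distance to the TSS of the annotated gene in kb, each row is a gene with its number of peaks, and each symbol is 1 peak. Sall1, with 18 peaks, and Maf, with 12, have peaks spread over 615 kb and 621 kb.

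By symbol lists, developmental transcription factors accounted for 199 distal peaks (11.2%) at 84 genes, against 107 promoter peaks (9.77%) and 107 gene-body peaks (8.50%). Counted by gene, they were 84 of 960 genes with distal, 103 of 1047 with promoter and 51 of 762 with gene-body peaks. By gene the distal share was thus below the promoter share. Within that list Irx symbols held 35 peaks at 6 genes, Fox and Sox symbols 22 each, Nkx symbols 16 and Tbx symbols 11. Symbol prefixes also catch noncoding neighbours such as Sox1ot. Secreted signals and their antagonists had 17 distal peaks (0.956%) against 29 promoter peaks (2.65%), ion channels and receptors 10 (0.562%) against 14 (1.28%), and cell adhesion genes 7 (0.394%) against 13 (1.19%). Predicted or unnamed loci had 355 distal peaks (20.0%) against 70 promoter peaks (6.39%), microRNAs 63 (3.54%) against 11, and chemosensory receptors, which are silent in most brain cells, 66 (3.71%) when symbols of the Or form were counted. These shares are counts of annotations and were not tested against one another.

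Each list had a median value over its distal peaks between 3.22 (cell adhesion) and 4.85 (chemosensory receptors without Or symbols), near the 4.18 of all distal peaks, and the lists differed in their highest members. No member of the transcription factor, signal, channel and adhesion lists exceeded a median of 15.4 over the 12 libraries. The highest transcription factor peaks were at Foxa1, a pioneer factor of endoderm, with a median of 15.4 (chr12:57538394-57538794), at Gsx2, a homeobox gene of the ventral forebrain, with 12.5, and at Tlx3, a homeobox gene of spinal excitatory neurons, with 11.5. At Foxa1 the values were 16.4, 13.3 and 11.2 in WT, 9.13, 14.4 and 22.0 in Mutyh-/-, 3.96, 17.8 and 16.4 in Ogg1-/- and 6.56, 16.5 and 21.7 in DKO. The lowest Foxa1 value was in Ogg1-/- replicate 1 and the groups overlapped. Outside transcription factors, the highest value among signals was at Fgfr3, the fibroblast growth factor receptor gene that the prefix list takes in, with a median of 11.2 in a window of 46 CG dinucleotides. Bmp7, a bone morphogenetic protein ligand, had peaks with medians of 6.68 and 6.29. Cacna2d2, an auxiliary calcium channel subunit, and Kcnj1, an inward-rectifier potassium channel, had medians of 7.78 and 5.74, and the cadherin genes Cdh26 and Cdh6 had 5.97 and 5.30. The highest members of the other lists lay far above these. Vmn1r238, a vomeronasal receptor gene, had a peak with a median of 95.5, and Vmn1r2, another of that family, had 32.02 and 14.3. Among predicted or unnamed loci the medians were 55.5 at 2810429I04Rik, 47.1 at Gm6194 and 45.7 at Gm8579. Among microRNAs Mir6356 had 47.3, followed by Mir5127 with 10.4 and Mir148a with 9.84. Each of these named peaks with a median of 32.02 or more overlapped a consensus peak in at least 4 of the 5 other tables.

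Neighbouring peaks were then joined to see how far such stretches extend. Chaining distal peaks over gaps of at most 50 kb gave 1045 chains, of which 709 were lone peaks (39.9% of the distal peaks) and 56 had at least 5 peaks and held 374 peaks (21.0%). With a limit of 20 kb 21 chains had at least 5 peaks, and with 100 kb 87. When non-repeat peaks of all classes were chained over 50 kb, 39 neighbourhoods had at least 5 distal peaks. The one with most distal peaks, between Gm15326 and Ankrd55 (chr13:111896590-112270915, 374 kb), held 21 distal peaks, no promoter peak and a summed value with a median of 122 (64.5 to 177 over the 12 libraries). Next came the stretch around A730082K24Rik and Sox6, an SRY-box factor of neural and muscle development, with 16 distal peaks over 303 kb. Others lay at Olig3, a bHLH factor of the dorsal neural tube (10 distal peaks), Cbln4, a secreted synaptic protein of the cerebellin family (10), Six3 and Six2, homeobox genes of forebrain and kidney (8), Barhl2, a homeobox gene of retina and diencephalon (7), and the Gsx1, Cdx2 and Pdx1 homeobox cluster (6). Except for that at Olig3, the neighbourhoods from Olig3 to the Gsx1 cluster also held 1 or 2 promoter peaks. They are a selection from the 39, and many of the 39 held no promoter peak. The A730082K24Rik and Sox6 stretch held none. Among stretches not listed, that at Tfap2c (9 distal peaks) held 1, and those at Sall1 (10), Maf (8) and Mefv (8) held none.

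Few distal peaks, and as few gene-body peaks, were seen in the other tables. By an overlap of at least 1 bp, 57 distal peaks (3.21%) had a H3K27me3 consensus peak in NeuN- nuclei, 44 (2.47%) an H3K4me3 peak in NeuN+ nuclei and 48 (2.70%) a Suz12 peak in NeuN+ nuclei. Among gene-body peaks these shares were 47 (3.73%), 25 (1.99%) and 30 (2.38%), and among promoter peaks 145 (13.2%), 131 (12.0%) and 114 (10.4%). In all, 1681 distal peaks (94.5%) overlapped no peak of any other table, as did 1189 gene-body peaks (94.4%) and 790 promoter peaks (72.1%). There were 1698 consensus peaks for H3K27me3 in NeuN- nuclei and 775 (NeuN+) and 312 (NeuN-) for Suz12, fewer than the 4132 for H3K27me3 in NeuN+ nuclei, and a missing overlap does not show that the mark or the protein was absent.

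A small group of 34 distal peaks (1.91%) behaved differently in that they overlapped a consensus peak in at least 4 of the 5 other tables, irrespective of antibody and fraction; they are called shared peaks here, a grouping chosen after the values had been seen. They lay on 19 chromosomes, 15 were repeat peaks and 6 were CpG-rich. Their values ranged from 1.11 to 492 (medians of single peaks) with a median of 19.6, whereas the 1744 distal peaks that were not shared had a median of 4.14 and none above 24.2. The shared peaks held 16.1% to 39.5% of all distal reads of a library. Input libraries were not used here.

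**Figure D2:**
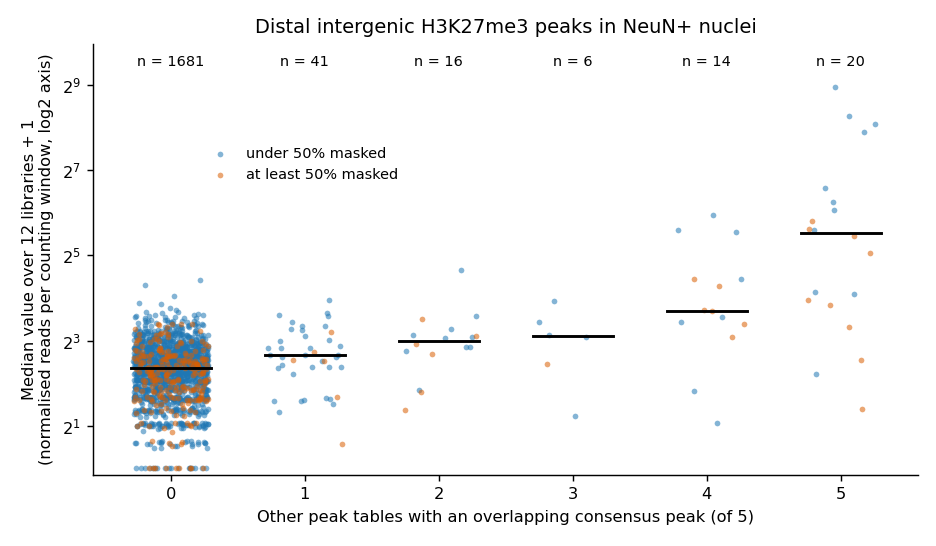
Level of each distal H3K27me3 peak against the number of the 5 other tables with an overlapping consensus peak; the y axis is the median value over 12 libraries plus 1, on a log2 axis, and each point is 1 peak. The 1681 peaks in no other table lie low, and the peaks in 4 or 5 other tables reach a median value of 492.

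The highest distal peaks were all shared peaks. At Ly6c2, which encodes a surface antigen of myeloid cells (chr15:75086588-75086988), the values were 511, 322 and 344 in WT, 538, 461 and 629 in Mutyh-/-, 534, 368 and 612 in Ogg1-/- and 472, 395 and 605 in DKO. All 12 libraries were between 322 and 629 and the genotypes overlapped. At Axin2, a scaffold of the beta-catenin destruction complex (chr11:109011766-109012166), the values were 278, 193 and 290.4 in WT, 199.8, 373 and 476 in Mutyh-/-, 195, 330.4 and 582 in Ogg1-/- and 248, 332 and 501 in DKO, and the window held 30 CG dinucleotides. At Pex2, a peroxisome biogenesis gene (chr3:5860492-5860892, 284 kb from the TSS), the values were 228, 165 and 219.7 in WT, 193, 364 and 345 in Mutyh-/-, 236, 228 and 562 in Ogg1-/- and 237, 278 and 402 in DKO. Both CpG-rich windows were lowest in WT replicate 2, and again the groups overlapped. The Pak3 peak (chrX:143482857-143483257), near a p21-activated kinase gene of neurons, was different in that the values were 762, 258 and 248 in WT, 1057, 125 and 77.9 in Mutyh-/-, 743, 280.2 and 116 in Ogg1-/- and 807, 62.0 and 511 in DKO. At Pak3 the replicate 1 library was the highest of each genotype. These regions ranked high with other antibodies too. By mean value the Axin2 peak was number 6 of 4132 for H3K27me3 in NeuN+ nuclei, number 12 of 12628 for H3K4me3 in NeuN+ nuclei and number 7 of 775 for Suz12 in NeuN+ nuclei.

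At P4ha2, which encodes a collagen prolyl 4-hydroxylase subunit (chr11:54140416-54140816, 12.7 kb from the TSS), the values were 30.7, 29.9 and 43.1 in WT, 43.6, 91.8 and 85.9 in Mutyh-/-, 51.5, 105 and 116 in Ogg1-/- and 76.5, 73.7 and 80.2 in DKO. Every knockout library there was above the highest WT library. None of these differences passed the adjusted test described below. Among repeat peaks, the Rab10os peak at the end of chromosome 12 (chr12:3109771-3110171, 76.3% masked) was uneven, in that the values were 87.6, 87.5 and 0 in WT, 706, 0 and 0 in Mutyh-/-, 117, 50.2 and 0 in Ogg1-/- and 286, 0 and 36.1 in DKO. Its reads were concentrated in Mutyh-/- replicate 1, and 5 of the 12 libraries had none.

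Levels were compared within each library, as the mean of log2(value + 1) over one set of peaks minus that over another, with a two-sided sign permutation test over the 12 libraries and Benjamini-Hochberg adjustment over 7 comparisons. The smallest p that 12 libraries can give is 0.000488. Distal peaks were lower than promoter peaks by 0.56 ± 0.18 (SD, n = 12) in all 12 libraries (difference -0.56, adjusted p = 0.000684, permutation). Against gene-body peaks the difference was -0.04 ± 0.05, with 10 of 12 libraries below 0 (adjusted p = 0.0211, permutation), and by medians instead of means it was -0.07 with an adjusted p of 0.292 (permutation). Distal and gene-body peaks were therefore near one another in level, and promoter peaks stood above both.

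Within the distal peaks, those that overlapped another mark were higher. The 48 peaks with a Suz12 peak in NeuN+ nuclei exceeded the other 1730 by 1.95 ± 0.45, the 44 with an H3K4me3 peak exceeded the rest by 1.81 ± 0.45 and the 57 with a NeuN- H3K27me3 peak by 1.497 ± 0.24. Each difference was positive in 12 of 12 libraries (SD, n = 12; adjusted p = 0.000684 each, permutation). The shared peaks carried much of this. Without them the differences were 0.68 for Suz12 (14 peaks, 11 of 12 libraries positive), 0.63 for H3K4me3 (14 peaks) and 0.34 for NeuN- (32 peaks).

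CpG-rich distal peaks were higher than the rest by 1.34 ± 0.23 (SD, n = 12; 37 against 1741 peaks, 12 of 12 libraries, adjusted p = 0.000684, permutation). The difference was 1.03 without the shared peaks, with 31 CpG-rich peaks left and again 12 of 12 libraries positive. CpG-rich distal windows near Foxa1, Fgfr3, Hmga2, Meis1, Pax2 and Pou4f2 were among those left; Hmga2, a chromatin architectural factor of embryonic growth, also overlapped a Suz12 peak and had a median value of 11.0. Repeat peaks differed from non-repeat distal peaks by -0.08 ± 0.21 (4 of 12 libraries positive, adjusted p = 0.202, permutation). Without the 4 replicate 1 libraries it was -0.21, negative in 8 of 8 libraries (p = 0.0078, permutation).

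**Figure D3:**
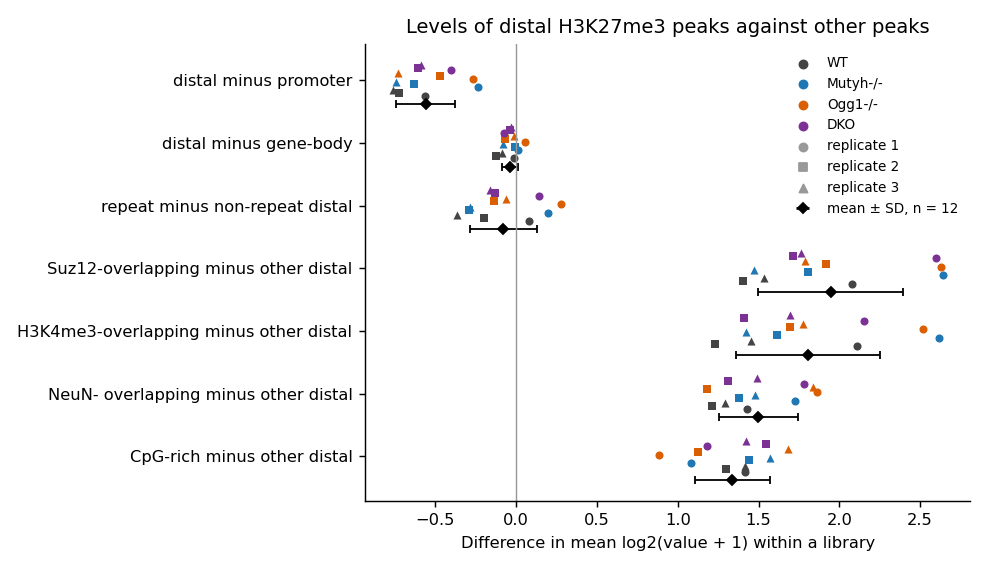
Differences in mean log2(value + 1) within a library for 7 comparisons of peak sets (x axis); small points are the 12 libraries and diamonds with bars are the mean ± SD (n = 12). Distal peaks lie 0.56 below promoter peaks and close to gene-body peaks, and the sets overlapping Suz12, H3K4me3 or NeuN- peaks and the CpG-rich set lie above the other distal peaks in every library.

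The libraries differed in depth and in a few peaks. Reads in the 4132 peaks numbered 23794 to 52344 per library and reads in distal peaks 8292 to 18342, which left a median of 2 to 8 reads per distal peak and 5.85% to 28.1% of distal peaks without a read. Only 270 distal peaks had reads in all 12 libraries, so single distal peaks rest on few reads. The replicate 1 libraries of all 4 genotypes stood apart, with 13.2% to 52.8% of their reads in masked chromosome 2 peaks annotated to Lrrc4c, which are gene-body peaks, against 0% to 8.79% in the other 8 libraries. H3K4me3 promoter peaks were found for 9 of 10 neuronal markers in NeuN+ and for 0 of 10 in NeuN- nuclei. The summed H3K4me3 value of the neuronal markers in NeuN+ nuclei was 181 to 296 in WT, 155 to 232 in Mutyh-/-, 144 to 337 in Ogg1-/- and 183 to 277 in DKO. Of 15 astrocyte, oligodendrocyte, microglia and endothelial markers only Slc1a3 and Mbp had such a peak in NeuN+ nuclei, and only Olig1 had one in NeuN- nuclei. A marker without a peak was not measured in these tables, so that the missing glial and vascular peaks do not show how pure either fraction was. The H3K27me3 table had no peak annotated to Ogg1 or Mutyh, so the knockouts were not checked in these libraries.

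The ranking of distal peaks was compared between libraries. The median Spearman correlation over the 66 pairs of libraries, across 1778 peaks, was 0.175 (0.0757 to 0.300), against 0.331 for promoter peaks and 0.184 for gene-body peaks. It averaged 0.170 between libraries of the same genotype and 0.177 between genotypes. For the 34 shared peaks the median was 0.753 and for the other distal peaks 0.147. These correlations are across peaks of the same libraries and share depth, so they are given without a test.

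The share of reads in distal peaks was compared to ask whether loss of a glycosylase moves H3K27me3 towards or away from intergenic sequence. In WT it was 33.7%, 34.3% and 36.3%, in Mutyh-/- 19.7%, 37.9% and 36.2%, in Ogg1-/- 33.1%, 37.8% and 36.9% and in DKO 27.3%, 37.9% and 35.0%. The low values of Mutyh-/- and DKO were those of replicate 1, in which the chromosome 2 peaks took many reads, and the groups overlapped. Mutyh-/- averaged 31.3 ± 10.0% against 34.7 ± 1.35% in WT (p = 0.9), Ogg1-/- 35.9 ± 2.48% (p = 0.5) and DKO 33.4 ± 5.50% (p = 0.9; SD, n = 3, two-sided exact permutation tests, adjusted p = 0.9 each). With 3 against 3 libraries no p below 0.1 can be reached. Leaving repeat peaks out of the reads of all classes, the share was 33.9% to 37.1% in all 12 libraries. Mutyh-/-, Ogg1-/- and DKO then lay 0.763, 1.44 and 1.28 percentage points above WT (exact permutation p = 0.3, 0.3 and 0.1). This turns the direction in Mutyh-/- and DKO. All DKO libraries (35.3% to 36.2%) then lay above all WT libraries (33.9% to 34.7%), whereas Mutyh-/- and Ogg1-/- overlapped WT. This separation was not seen when the shared peaks were left out instead. The share was then 36.6%, 35.2% and 35.3% in DKO and 35.9%, 34.1% and 34.3% in WT, which overlapped (exact permutation p = 0.3).

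The share of distal reads that lay in repeat peaks was 13.0 ± 1.82% in WT, 15.3 ± 6.09% in Mutyh-/-, 14.7 ± 2.72% in Ogg1-/- and 14.3 ± 2.66% in DKO (SD, n = 3). None of the 3 differences from WT passed the exact permutation test (p = 0.8, 0.4 and 0.7, adjusted p = 0.9 each). Again the highest library was Mutyh-/- replicate 1, at 22.3%, and without it the difference from WT was -1.14 points.

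**Figure D4:**
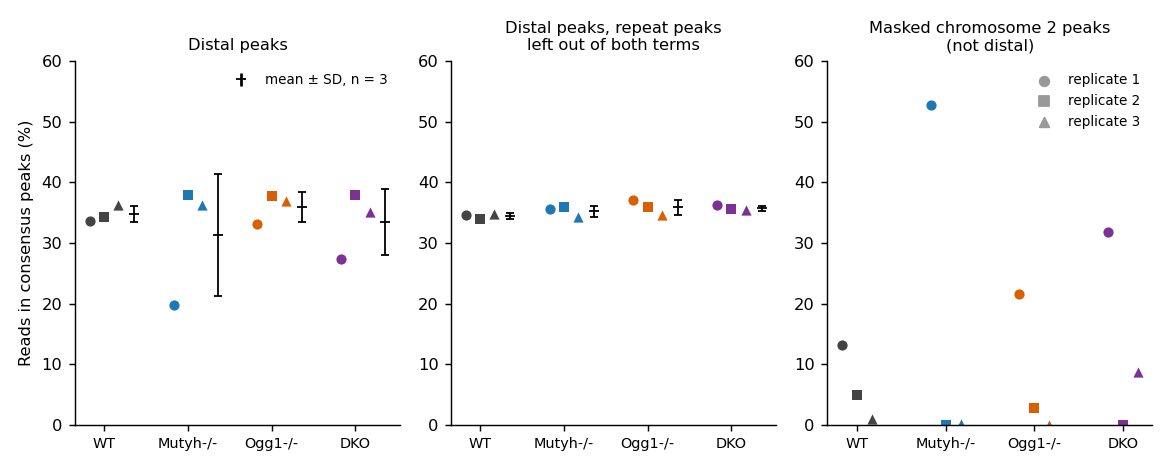
Share of reads in consensus peaks per library by genotype, in percent: distal peaks, distal peaks after leaving out repeat peaks, and the masked chromosome 2 peaks; points are libraries. Distal shares run from 19.7% to 37.9%, narrow to 33.9% to 37.1% without repeat peaks, and the replicate 1 libraries hold 13.2% to 52.8% of reads in the chromosome 2 peaks.

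Genotypes were then compared peak by peak. A limma-trend fit on log2(value + 1) over all 4132 peaks and 12 libraries was used, and peaks were counted as differentially enriched regions (DERs) as the study defined them, where p without adjustment is under 0.05 and the log2 fold change exceeds 0.5 in either direction. In Mutyh-/-, 59 distal peaks (3.32%) were DERs, against 3.8% of all peaks, with 20 higher than WT (1.02% of all peaks were) and 39 lower (2.78%). In Ogg1-/-, 61 (3.43%) were DERs against 3.73% of all peaks, with 30 higher (1.52% of all peaks) and 31 lower (2.2%). In DKO, 56 (3.15%) were DERs against 3.1%, with 36 higher (1.67% of all peaks) and 20 lower (1.43%). Each share was near that of all peaks.

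No distal peak passed a Benjamini-Hochberg adjusted p under 0.05 in any genotype, and the smallest adjusted p was 0.98. An F test over the 4 genotypes gave 0 distal calls (39 at an unadjusted p under 0.05, where 2.73% of all peaks passed), and a test of whether DKO departed from the sum of both single knockouts gave 0 (66 at an unadjusted p under 0.05, where 3.82% of all peaks passed). By DESeq2 no distal peak passed either, and by edgeR 1 did. That was chr9:3000217-3000617, annotated to Mir101c and fully masked, whose tandem copies were 97.01% identical, with values of 138 in Mutyh-/- replicate 1 and 0 in Mutyh-/- replicates 2 and 3 (log2 fold change 5.87, adjusted p = 0.00115). Replicate 1 was thus the only Mutyh-/- library with reads there. The median standard error of a log2 fold change was 1.01, which is a measure of how large a change at 1 distal peak had to be to pass.

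The direction of the DERs depended on the scaling. Over all peaks the median log2 fold change was -0.21 in Mutyh-/-, -0.11 in Ogg1-/- and -0.01 in DKO, and over distal peaks -0.17, -0.03 and 0.04. The distal medians turned sign with single libraries left out. They ranged from -0.33 to 0.05 in Mutyh-/-, where leaving out Mutyh-/- replicate 1 turned the sign, from -0.18 to 0.16 in Ogg1-/-, where Ogg1-/- replicates 1 and 2 and WT replicate 3 did, and from -0.17 to 0.26 in DKO, where DKO replicate 3 and WT replicate 2 did. Without all replicate 1 libraries they were 0.03, 0.17 and 0.26. With TMM factors the Mutyh-/- DERs were 38 higher and 39 lower, in edgeR 35 and 27, and after quantile normalisation 46 and 32. For Ogg1-/- quantile normalisation gave 54 higher and 33 lower, and DKO had 42 higher and 22 lower with TMM factors and 48 and 27 after quantile normalisation. In the main fit all peaks also had more higher than lower DERs in DKO (69 and 59). The counts under other scalings were not set against those over all peaks, so whether distal peaks stand out in direction was not tested. Distal peaks whose 3 knockout libraries all lay on one side of the 3 WT libraries numbered 151 in Mutyh-/- (8.49%), 155 in Ogg1-/- (8.72%) and 152 in DKO (8.55%), where the shares of all peaks were 9.15%, 9.17% and 9.08%. In all, 153 distal peaks were DERs in some knockout and 4 in all 3. The 3 comparisons share their WT libraries. The counts of 153 and 4 were not set against those over all peaks, so whether distal peaks stand out was not tested.

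The DERs of each gene list were counted, where 3.8% of all peaks were DERs in Mutyh-/-, 3.73% in Ogg1-/- and 3.1% in DKO. Of the 199 distal peaks at developmental transcription factors, 2 were higher and 4 lower in Mutyh-/-, 3 and 2 in Ogg1-/- and 3 and 3 in DKO. Their median log2 fold changes were -0.27, -0.17 and -0.03. Of the 355 peaks at predicted or unnamed loci, 7 were higher and 9 lower in Mutyh-/-, 7 and 8 in Ogg1-/- and 11 and 3 in DKO. Secreted signals had 1 lower DER in Ogg1-/- and 1 higher in DKO, ion channels 1 higher in DKO, cell adhesion genes none, microRNAs 1 lower in Mutyh-/- and 1 higher and 2 lower in Ogg1-/-, and the 66 chemosensory peaks 3 higher and 1 lower in Mutyh-/-, 6 higher in Ogg1-/- and 1 higher in DKO. Of all peaks, 1.02%, 1.52% and 1.67% were higher in Mutyh-/-, Ogg1-/- and DKO. The chemosensory share was above this in Mutyh-/- and Ogg1-/- and was not tested. Of the 270 repeat peaks, 5 were higher and 8 lower in Mutyh-/- (4.81% of them DERs), 9 and 5 in Ogg1-/- (5.19%) and 10 and 0 in DKO (3.70%). Of the 34 shared peaks, 2 were higher and 1 lower in Mutyh-/- (8.82% of them DERs), 5 and 0 in Ogg1-/- (14.7%) and 2 and 1 in DKO (8.82%). Each of these shares was above that of all peaks, in a small set chosen after the values had been seen. These counts were made under the deposited scaling.

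The DERs with the smallest p whose knockout libraries did not overlap WT are given here in full; their p values chose them, so they are a description. In Mutyh-/- the first was near Pou4f3, a POU-domain factor of hair cells (chr18:42383108-42383508, 11.0 kb from the TSS). At Pou4f3 the values were 19.7, 9.96 and 12.9 in WT, 0, 0 and 5.00 in Mutyh-/-, 9.91, 4.18 and 13.4 in Ogg1-/- and 8.74, 2.91 and 8.02 in DKO. The log2 fold change was -3.01 (SE 0.91, adjusted p = 0.999), and it stayed a DER under all 22 alternatives. The Mutyh-/- libraries were the lowest on average, Ogg1-/- overlapped WT, and the DKO libraries also lay below it (DKO log2 fold change -1.07, SE 0.91). Higher in Mutyh-/- was a peak annotated to the predicted locus Gm8579 (chr6:3191798-3192198), where the values were 2.19, 0 and 8.62 in WT, 19.3, 14.4 and 17.98 in Mutyh-/-, 0.991, 8.36 and 15.4 in Ogg1-/- and 12.0, 2.91 and 4.81 in DKO. Its log2 fold change was 2.53 (SE 0.87, adjusted p = 0.999), and without WT replicate 2 it was no longer a DER. A masked peak near the pseudogene Pisd-ps1 (chr11:3101104-3101504) was also higher, with values in Mutyh-/- of 9.13, 8.85 and 5.99 against 0, 0 and 0.862 in WT (log2 fold change 2.85, SE 1.06, adjusted p = 0.999).

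In Ogg1-/- a peak annotated to Mir101c (chr9:3035859-3036259, 94.0% masked and within the lincRNA gene Gm26870) led the list. For Mir101c the values were 3.29, 3.32 and 0 in WT, 37.5, 0 and 0 in Mutyh-/-, 46.6, 6.27 and 19.5 in Ogg1-/- and 13.1, 6.79 and 0 in DKO. Ogg1-/- replicate 1 and Mutyh-/- replicate 1 were the highest, and the log2 fold change of 2.86 (SE 0.96, adjusted p = 0.98) was no longer a DER by DESeq2, without Ogg1-/- replicate 1 or without all replicate 1 libraries. The other peaks had no read in any Ogg1-/- library. One lay 90.4 kb from Prl2c2, a prolactin-family gene of the placenta (chr13:12906820-12907220), where the values were 7.67, 7.75 and 6.89 in WT, 11.2, 0 and 8.99 in Mutyh-/-, 0, 0 and 0 in Ogg1-/- and 5.46, 2.91 and 4.81 in DKO. The other lay 38.5 kb from the unnamed locus 4921513I03Rik (chr10:120726882-120727282), where the values were 4.38, 12.2 and 6.89 in WT, 5.07, 4.42 and 0 in Mutyh-/-, 0, 0 and 0 in Ogg1-/- and 8.74, 4.85 and 4.01 in DKO. Their log2 fold changes of -3.08 and -3.04 (SE 1.04 and 1.05, adjusted p = 0.98) depend on the added 1, since Ogg1-/- was at 0.

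In DKO the smallest p was at a peak 147 kb from Zfhx3, a zinc-finger homeobox gene (chr8:107795559-107795959, 52.4% masked). At Zfhx3 the values were 0, 0 and 0 in WT, 0, 5.53 and 0 in Mutyh-/-, 3.96, 0 and 0 in Ogg1-/- and 13.1, 6.79 and 14.4 in DKO. All WT libraries were at 0, so that the log2 fold change of 3.58 (SE 1.02, adjusted p = 0.998) depends on the added 1 and is no estimate of a fold. A peak 838 kb from the predicted locus Gm7977 (chr3:48864616-48865016) was lowest in WT and on average highest in DKO, as the values were 0, 1.11 and 3.45 in WT, 4.06, 5.53 and 6.99 in Mutyh-/-, 4.95, 4.18 and 9.25 in Ogg1-/- and 6.56, 17.4 and 12.8 in DKO (DKO log2 fold change 2.56, SE 0.94, adjusted p = 0.998). At Gm21190 (chr5:15509331-15509731, 95.5% masked) DKO had 9.83, 7.75 and 5.62 against 0, 0 and 0.862 in WT, and it was no longer a DER without the replicate 1 libraries (DKO log2 fold change 2.80, SE 1.05, adjusted p = 0.998). All 9 peaks were small, with at most 46.6 normalised reads in any library.

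**Figure D5:**
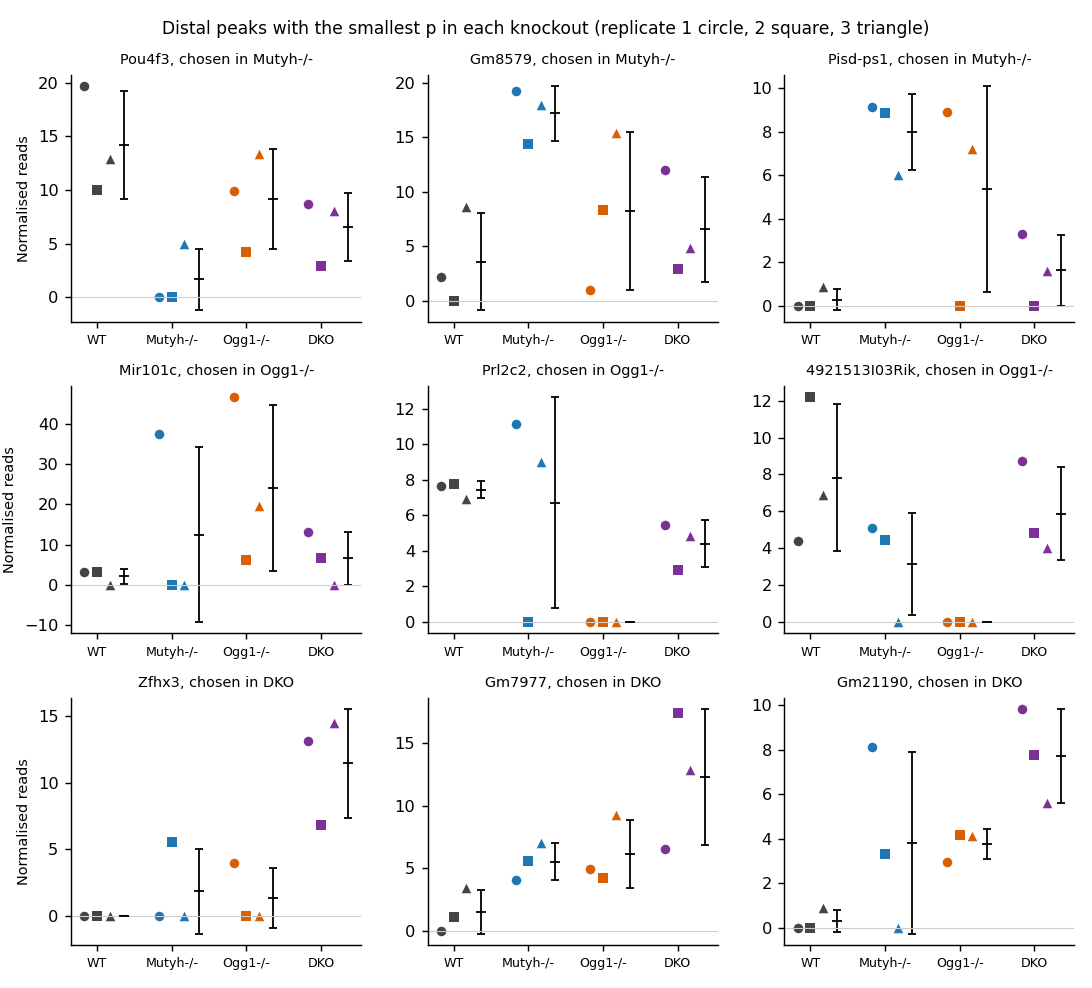
Normalised reads in each library for the 9 distal peaks with the smallest p among those whose knockout libraries did not overlap WT, by genotype (x axis); circles, squares and triangles are replicates 1, 2 and 3. Values are at most 46.6, with no read in any Ogg1-/- library at Prl2c2 and 4921513I03Rik and none in any WT library at Zfhx3.

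Summing peaks over a neighbourhood gives more reads per test. Over 330 neighbourhoods of at least 3 non-repeat peaks, no comparison gave an adjusted p under 0.05 (limma), and an unadjusted p under 0.05 was reached by 11 (3.33%) in Mutyh-/-, 3 (0.909%) in Ogg1-/- and 3 (0.909%) in DKO, and by 7 (2.12%) in the F test. Among the 39 neighbourhoods with at least 5 distal peaks, that at 1700028P15Rik and Cbln4 (chr2:171854277-172108787, 12 peaks, 10 of them distal) was the only one with an unadjusted p under 0.05. Its summed values were 66.8, 62.0 and 62.9 in WT, 23.3, 35.4 and 42.0 in Mutyh-/-, 53.5, 70.0 and 100.7 in Ogg1-/- and 40.4, 49.4 and 89.8 in DKO. All Mutyh-/- libraries lay below WT (log2 fold change -0.95, SE 0.46, adjusted p = 0.968). Sall1 had 3 of the 39 neighbourhoods, which did not move alike in DKO. In the one with 10 distal peaks (chr8:89455976-89676362) the summed values were 34.0, 39.9 and 44.8 in WT, 25.4, 26.5 and 52.0 in Mutyh-/-, 23.8, 53.3 and 65.8 in Ogg1-/- and 49.2, 53.3 and 77.0 in DKO, and every DKO library was above WT (log2 fold change 0.57, SE 0.48, adjusted p = 1.0). In the Sall1 neighbourhood that holds Mir8110 (chr8:88916145-89061680, 7 peaks, 6 of them distal) the summed values were 34.0, 35.4 and 60.3 in WT and 20.8, 44.6 and 46.5 in DKO (log2 fold change -0.24, SE 0.50, adjusted p = 1.0). In the remaining one (chr8:89270608-89389836, 6 distal peaks) they were 18.6, 21.0 and 33.6 in WT and 35.0, 20.4 and 43.3 in DKO (log2 fold change 0.40, SE 0.59, adjusted p = 1.0), and in both the DKO and WT libraries overlapped. The 39 had median log2 fold changes of -0.17, -0.05 and -0.02 in Mutyh-/-, Ogg1-/- and DKO with a median SE of 0.50. Without all replicate 1 libraries these medians were 0.22, 0.12 and 0.16, so that each turned its direction.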

How the data were processed

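H3K27me3, H3K4me3 and Suz12 ChIP-seq tables of NeuN+ and NeuN- nuclei were used, with 3 replicates of each of 4 genotypes. According to the methods of the study and the submitters' processing notes, reads were aligned to GRCm38 (mm10) with Bowtie2 2.3.5.1, enriched regions were called with epic2 (SICER is listed in the notes), consensus regions and reads were obtained with DiffBind 3.10.1, genotypes were tested with edgeR 3.42.4, and peaks were annotated with ChIPseeker 1.36. How duplicates, blacklisted regions and input were handled is not given in the sources used here. The values deposited by the authors are signal (the reads of a consensus peak scaled by 1 factor per library), and whole reads were recovered in 100% of the libraries (tolerance 1e-6). Columns with the authors' own comparisons (fold changes and p-values), where present, were not used.

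The fit was limma 3.58.1 (limma-trend, robust empirical Bayes) on log2(value + 1) with genotype as the only term and Benjamini-Hochberg adjustment over the 4132 peaks, in R 4.3.3. DESeq2 1.42.0 and edgeR 4.0.16 on the recovered reads, TMM and quantile scaling, a pseudocount of 5, a filter on the lowest 25% of peaks, peaks without repeats, a replicate block and leaving out libraries were alternatives. The limma fits were tried on simulated data. For single peaks, changes were simulated only at peaks with a mean value above 5. The median value of distal peaks was 4.18, so changes at many of them were not covered. Sequence features came from the RefSeq GRCm38.p6 assembly (pysam 0.24.0, numpy 2.4.6, pandas 2.3.3, Python 3.11.15), and gene overlaps from GENCODE vM21. Replicates were separate pools of animals, and p-values measure the spread between these pools. In the limma fit over single peaks that spread was largely shared across peaks. The prior degrees of freedom, the weight of the shared spread, were infinite at the median, against 8 residual ones. For most peaks the SE and p thus follow the spread common to peaks of like level, not that of the peak itself.

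Named peaks were the 3 distal DERs per knockout with the smallest p whose libraries did not overlap WT, the 6 non-repeat distal peaks with the highest median, the 4 repeat peaks with the highest mean, the 6 non-repeat distal peaks with a Suz12 peak and the highest median, and up to 3 peaks per symbol list by median (developmental transcription factors, secreted signals and antagonists, ion channels and receptors, cell adhesion, chemosensory receptors, microRNAs, predicted or unnamed loci). The members and lists were chosen with earlier results of these data known. Shared peaks, neighbourhoods, the leaving out of all replicate 1 libraries and other peaks named outside this rule, such as Hmga2, were chosen after the values had been seen.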

Additional observations from a re-analysis of the deposited data

How the results depend on the processing

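Distal DERs in Mutyh-/- (59) were 89 by DESeq2, 39 without the lowest 25% of peaks and 46 to 97 with 1 library left out, the 97 without Mutyh-/- replicate 3. In Ogg1-/- (61) they were 36 without the lowest 25% of peaks and 45 to 81 with 1 library left out, and in DKO (56) 34 and 45 to 66. The filter leaves 1234 distal peaks to test, which lowers its counts; the causes of the other shifts were not tested. Adjusted calls, 0 in the fit reported above, were 1 by edgeR in Mutyh-/-, 1 by edgeR in the F test and 1 by edgeR for non-additivity, all at the masked chr9:3000217-3000617 peak. Without all replicate 1 libraries the F test called 1 distal peak, chr9:124257355-124257755 at 2010315B03Rik (adjusted p = 0.0325), and 1 neighbourhood, at Nfatc1, was called in Mutyh-/- (log2 fold change -2.10, adjusted p = 0.0466).

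Deviations from the group mean correlated at 0.00608 to 0.0930 between each knockout library and the same-numbered WT library, and the replicate numbers were not taken as pairs. With few reads per peak, such low correlations do not show that same-numbered libraries lack a shared grouping. The replicate 1 libraries had 19.7% to 33.7% of their reads in distal peaks, against 34.3% to 37.9% in the others. The main fit holds no term for this. With the replicate block the distal DERs numbered 93 in Mutyh-/-, 97 in Ogg1-/- and 81 in DKO, and adjusted calls stayed at 0 among distal peaks. These counts, and those under the other alternatives above, stand without the share of all peaks under the same setting. Whether distal peaks shift more than other peaks was not tested.

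The share of reads in distal peaks changed direction without repeat peaks (0.763 points in Mutyh-/- and 1.28 in DKO), without shared peaks (0.669 and 0.883) and without Mutyh-/- or DKO replicate 1 (2.29 and 1.73), and ranged from -6.77 to 2.29 and from -3.58 to 1.73 with 1 library left out. The share of distal reads in repeat peaks ranged from -1.14 to 4.16 points in Mutyh-/- and from -0.198 to 2.27 in DKO, and the negative values were those without replicate 1 of the knockout.

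The difference between distal and gene-body levels was -0.0729 by medians (adjusted p = 0.292, permutation), and that between repeat and non-repeat distal peaks was -0.141 without shared peaks (adjusted p = 0.0220, permutation) and -0.205 without the replicate 1 libraries (p = 0.0078, permutation). The differences from promoter peaks and of the Suz12, H3K4me3, NeuN- and CpG-rich sets kept their direction and side of the threshold in each of the 5 alternatives run for them. A median of 2 to 8 reads per distal peak limits every comparison of single peaks.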

Other observations

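Satellite-like sequence made up a small set of its own. Of the NeuN+ H3K27me3 peaks, 7, of which 3 were distal, shared at least 10% of their 20-base words with the chr9:3000217-3000617 window, whose tandem copies lay 234 bp apart. The mouse major satellite of pericentromeric heterochromatin is a tandem repeat with a unit of this length. Among the 3 distal peaks was that at Rab10os, which shared 40.3% of its words and had a value of 706 in Mutyh-/- replicate 1. The summed value of the 3 distal peaks was 94.2, 90.8 and 0 in WT, 881, 0 and 0 in Mutyh-/-, 188, 99.3 and 19.5 in Ogg1-/- and 334, 6.79 and 57.8 in DKO. Replicate 1 was the highest library of each genotype. The gene-body peak at Lrrc4c on chromosome 2 (chr2:98666960-98667360), a member of the same set, had values of 2916, 21287, 4608 and 9663 in the replicate 1 libraries of WT, Mutyh-/-, Ogg1-/- and DKO. The part of the replicate numbers in this was not tested.

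Distal peaks annotated to Klra2, a natural killer cell lectin-like receptor gene, lay 281028 to 416185 bp from its TSS. Their median values were low, from 0 to 2.31 for single peaks. The non-repeat peaks there formed another compact stretch outside developmental genes, with 9 peaks, 7 of them distal, over 136 kb of chromosome 6. The summed values of all 9 peaks were 11.0, 17.7 and 7.76 in WT, 8.11, 19.9 and 17.98 in Mutyh-/-, 26.8, 29.3 and 26.7 in Ogg1-/- and 10.9, 23.3 and 38.5 in DKO. All Ogg1-/- libraries lay above WT, with a log2 fold change of 1.19 (SE 0.62, unadjusted p = 0.0568, adjusted p = 0.989 by limma). This stretch was named after its values had been seen.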
